A study of Mus musculus with 3 samples.

Results

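Accessible regions listed before dTAG in NIPBL-degron myeloid progenitors, and listed neither 6 h nor 72 h after it, numbered 1134 of the 76155 regions at 0 h that were at least 150 bp long and lay on chromosomes 1 to 19 or X (1.49%, exact 95% interval 1.40 to 1.58). A region was a member when it shared not 1 bp with any region of the 6 h list or of the 72 h list, whatever its height at 0 h. The members were chosen by presence and absence in the 3 lists, so their absence is a description with no test. The cells were the ECOMG line, labelled as a mouse myeloid progenitor, with the genotype FKBP12F36V_NIPBL. In this degron the FKBP12 tag lets dTAG, a small molecule, bring about breakdown of the tagged NIPBL. GM-CSF and beta-estradiol were in the medium of all 3 libraries: 0 h without dTAG, 6 h with dTAG and 72 h with dTAG, each from 50000 cells. The sources used here do not say whether the line was 1 clone. With 1 library per time point, and untreated cells at 0 h alone, the effects of dTAG, of time in culture and of the single library cannot be told apart, and no p-value is given.

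Transposase inserts adapters where DNA is free of nucleosomes, so an ATAC-seq region marks a promoter, an enhancer or another stretch that bound factors keep open. NIPBL helps cohesin load on chromatin, and cohesin then extrudes loops until it meets CTCF or is released. In myeloid progenitors PU.1 and C/EBP factors hold many enhancers open. Near their gene ends the loci of Spi1 (PU.1) and Cebpa had regions of fold 129 each at 0 h, while Cd3e of T cells, Krt5 of epithelia and Alb of liver had none above 9.07. No region lay within 1 kb of an end of Mpo, a granule gene of myeloid progenitors.

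A promoter was the part of a member that a reader can see in letters. The 4 promoters printed here were chosen after their values were seen, as examples that do not stand for the members as a whole. The windows run from 250 bases before to 50 after a RefSeq start site, on GRCm38.p6 (the assembly of mm10), 5′ to 3′ on the strand of the gene, with the bases that lay in the member in capitals. Osbp2 (an oxysterol-binding protein; chr11:3774619-3774918, minus strand) had the most bases covered, 266, in a window of 77.7% GC. Calhm5 (a calcium homeostasis modulator; chr10:34096470-34096769, minus strand) had an AT-richer window, with 43.7% GC. Kcnk7 (a potassium channel subunit; chr19:5704221-5704520, plus strand) had, with a fold of 7.56, the highest member among the named genes with at least 150 bases covered. Lmo7 (a LIM and PDZ domain protein; chr14:101729678-101729977, plus strand) lay far from any other listed region.
Osbp2: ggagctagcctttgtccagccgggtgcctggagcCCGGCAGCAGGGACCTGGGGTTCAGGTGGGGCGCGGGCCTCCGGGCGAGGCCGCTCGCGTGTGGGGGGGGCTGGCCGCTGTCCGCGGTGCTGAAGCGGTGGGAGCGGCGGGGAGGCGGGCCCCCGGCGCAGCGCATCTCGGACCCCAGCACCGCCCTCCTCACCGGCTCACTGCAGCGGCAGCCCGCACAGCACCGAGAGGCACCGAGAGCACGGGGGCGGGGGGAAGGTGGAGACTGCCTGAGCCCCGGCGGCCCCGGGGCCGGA
Calhm5: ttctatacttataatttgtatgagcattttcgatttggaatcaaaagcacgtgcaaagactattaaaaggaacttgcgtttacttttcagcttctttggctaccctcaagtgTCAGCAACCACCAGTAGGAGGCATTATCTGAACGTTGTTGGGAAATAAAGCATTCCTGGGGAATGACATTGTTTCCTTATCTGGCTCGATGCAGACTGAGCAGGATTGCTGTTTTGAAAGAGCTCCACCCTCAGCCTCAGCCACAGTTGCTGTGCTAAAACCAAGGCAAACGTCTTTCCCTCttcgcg
Kcnk7: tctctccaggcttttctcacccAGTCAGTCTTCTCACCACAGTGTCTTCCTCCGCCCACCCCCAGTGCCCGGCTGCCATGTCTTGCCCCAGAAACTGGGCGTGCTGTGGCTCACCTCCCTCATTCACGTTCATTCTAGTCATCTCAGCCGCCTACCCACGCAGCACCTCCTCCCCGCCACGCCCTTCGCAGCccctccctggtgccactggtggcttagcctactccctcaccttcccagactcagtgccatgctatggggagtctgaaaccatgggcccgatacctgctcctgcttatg
Lmo7: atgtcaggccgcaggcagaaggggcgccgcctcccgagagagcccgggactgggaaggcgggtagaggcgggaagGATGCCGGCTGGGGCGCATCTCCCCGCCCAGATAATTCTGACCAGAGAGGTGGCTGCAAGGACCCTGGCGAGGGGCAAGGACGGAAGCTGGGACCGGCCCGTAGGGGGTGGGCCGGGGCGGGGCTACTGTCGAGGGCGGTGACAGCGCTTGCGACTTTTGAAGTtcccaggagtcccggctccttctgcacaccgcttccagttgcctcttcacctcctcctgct

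The members at these promoters had folds of 6.05 (Osbp2), 4.54 (Calhm5), 7.56 (Kcnk7) and 4.54 (Lmo7) at 0 h. The fold is the authors' value for a peak, its summit over the background of the peak caller. Around Lmo7 the nearest region was 32473 bp away at 0 h, 44893 bp at 6 h and 44889 bp at 72 h. At Calhm5 these distances were 21188, 6768 and 31984 bp. At Kcnk7 another region lay within 348 bp at 0 h, 324 bp at 6 h and 411 bp at 72 h, so regions beside this promoter were listed at each time.

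In all, 29 members touched 30 of 32585 promoter windows. Of these windows, 19 belonged to named coding genes and 11 to predicted or non-coding ones. At least 150 bases lay in the member in 13 of the 30, and at Rpp30 only 3 bases did. GC, CpG and motifs were counted over whole windows, so they also describe bases outside the members. The promoters touched by members had CpG counts near those of all windows and below those of lasting regions. The median was 8 CpG per 300 bp window, against 7 in all windows, 4 in the 18744 windows with no 0 h region, 22 in the 12165 windows touching a region listed at all 3 times and 13 in the 292 touching a region listed until 6 h. Median GC was 54.5% for windows touched by members and 53.0% for all windows. It was 61.7% for windows of lasting regions and 59.3% for windows of those listed until 6 h. These windows were not weighted for height, and lasting regions were higher. At least 15 CpG occurred in 10 of the 30 windows (33.3%, 17.3 to 52.8), against 73.0% (72.2 to 73.8) of the windows of lasting regions and 34.8% of all windows. Among the 10 were the windows of Lmo7 and the predicted gene Gm9922 (22 CpG each), nearly the same bases on opposite strands. The same member touched both, and the intervals treat them as independent. Members in CpG-rich windows included those of Osbp2 (32 CpG), Slc22a23 (38) and Trim47 (29). Those in CpG-poor windows included Wdr37 (3) and Ifitm3 (5), an interferon-induced membrane protein.

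Motif letters were searched on both strands of the 30 whole windows, bases outside the members included. GAGGAAGT (PU.1) and TTGCNNAA (C/EBP) were found in 0 of the 30 windows, which with an exact interval allows a share of up to 11.6%. They occurred in 3.22% and 10.9% of all windows. TGTGGT (RUNX factors) was found in 7 (23.3%, 9.93 to 42.3; all windows 16.6%), TGANTCA (AP-1) in 4 (13.3%, 3.76 to 30.7; 7.85%), and AGATAA, read by factors of the GATA family, in 5 (16.7%, 5.64 to 34.7; 11.2%). CANNTG (E-box) was found in 23 (76.7%, 57.7 to 90.1; 72.3%) and a core pattern of CTCF in 2 (6.67%, 0.818 to 22.1; 3.45%). For each of these 7 motifs the share over all windows lay within the interval of the members' windows. Matches shared by the overlapping windows of Lmo7 and Gm9922, the GATA one included, were counted in both. Among the printed promoters, the covered bases of Calhm5 held the GATA, E-box and CTCF patterns, those of Lmo7 the GATA one, those of Kcnk7 the RUNX one and those of Osbp2 an E-box. A match is only a run of letters, and matches of different motifs were allowed to overlap.

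The members were low regions. Their median fold at 0 h was 4.54 (quartiles 3.78 and 6.05, range 3.02 to 14.4), against 7.56 in the 7896 regions listed until 6 h and 21.2 in the 66667 listed at all 3 times. The 458 regions missing at 6 h and listed again at 72 h were nearly as low, with a median of 5.29. The folds of each list lay on an even grid. Read as summit fragments + 1 divided by a constant background + 1, the grid puts the median member at 5 fragments and the highest at 18, with 3 as the lowest summit in each list. Of the members, 821 (72.4%) had at most 6 fragments and 1028 (90.7%) at most 8. A count of 5 has an exact 95% Poisson interval of 1.62 to 11.7, which covers counting error only, so for most members a difference from a summit under 3 fragments was not detectable at this depth. Absent thus means not listed: signal below the listing minimum may remain.

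The share of regions that became members fell steeply with height. At a fold of 3.78, or 4 fragments, 34.5% of the 996 regions had no region at 6 h, 57.5% had none at 72 h and 26.1% (260) were members. At a fold of 6.05 the shares were 7.59%, 38.7% and 4.92%. From a fold of 10 upward 19 of 56091 regions were members (0.0339%, 0.0204 to 0.0529). Over all heights 1592 regions (2.09%) were missing at 6 h and 9030 (11.9%) at 72 h. Of the 1592, 1134 (71.2%, 68.9 to 73.4) were missing at 72 h too and 458 (28.8%) were listed again. Both comparisons start from the 0 h library, so this share gives the members' count and is no independent support for it.

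**Figure D1:**
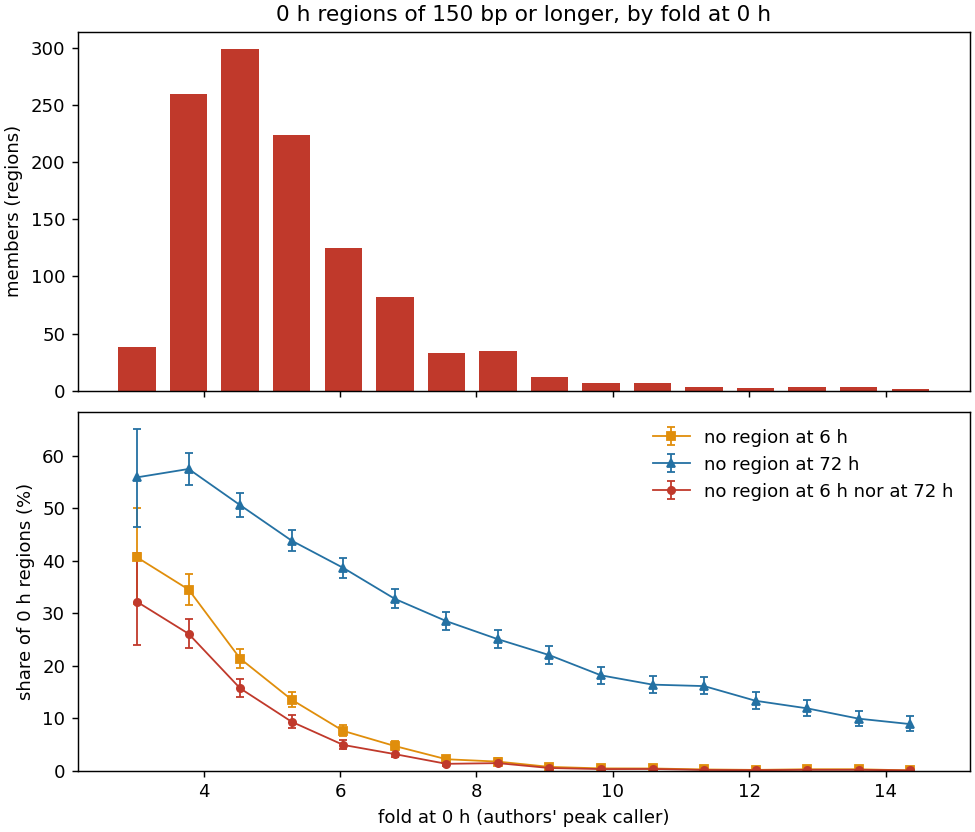
The upper panel counts the members at each fold of the 0 h list, and the lower one gives the share of 0 h regions of 150 bp or longer with no region at 6 h (orange), at 72 h (blue) or at both times (red), with exact 95% intervals. Members are most numerous at a fold of 4.54 (299 regions), and the red share falls from 32.2% at a fold of 3.02 to 0.0592% at 14.4.

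A set of about the same size was private to the 6 h list. By the same rule applied to each list, 1031 of 78438 regions at 6 h (1.31%, 1.24 to 1.40) were found in neither other list, and 4503 of 74555 at 72 h (6.04%, 5.87 to 6.21). At matched heights the 0 h and 6 h shares had overlapping intervals in every height group. They were 26.8% (24.2 to 29.5) and 26.2% (23.4 to 29.1) at 3 to 4 fragments. At 5 to 6 they were 12.1% (11.2 to 13.2) and 12.02% (11.01 to 13.1). At 7 to 8 they were 4.03% (3.51 to 4.61) and 4.12% (3.60 to 4.70), and at 9 to 12 0.915% (0.733 to 1.13) and 1.05% (0.859 to 1.28). From 13 fragments upward they were 0.0339% (0.0204 to 0.0529, 19 regions) and 0.0119% (0.00479 to 0.0245, 7 regions), with intervals that overlapped only at their edges. The highest private fold was 14.4 at 0 h and 110 at 6 h. The 72 h list had 29.2% (25.9 to 32.8) private at 3 to 4 fragments, an interval that overlapped the others, and higher shares above that, with 25.1% (23.6 to 26.7) private at 5 to 6 fragments and 19.1% (17.9 to 20.3) at 7 to 8. Regions private to the 0 h list lay within 1 kb of a gene end in 16.2% (14.1 to 18.5) of cases, and those private to the 6 h list in 10.3% (8.49 to 12.3). The background of the grid, a rough stand-in for library depth, was 1.01 at 6 h and 0.870 at 72 h, with 0 h at 1. The options of the peak caller, which could change it, are not stated. The part of depth in these counts was not tested.

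**Figure D2:**
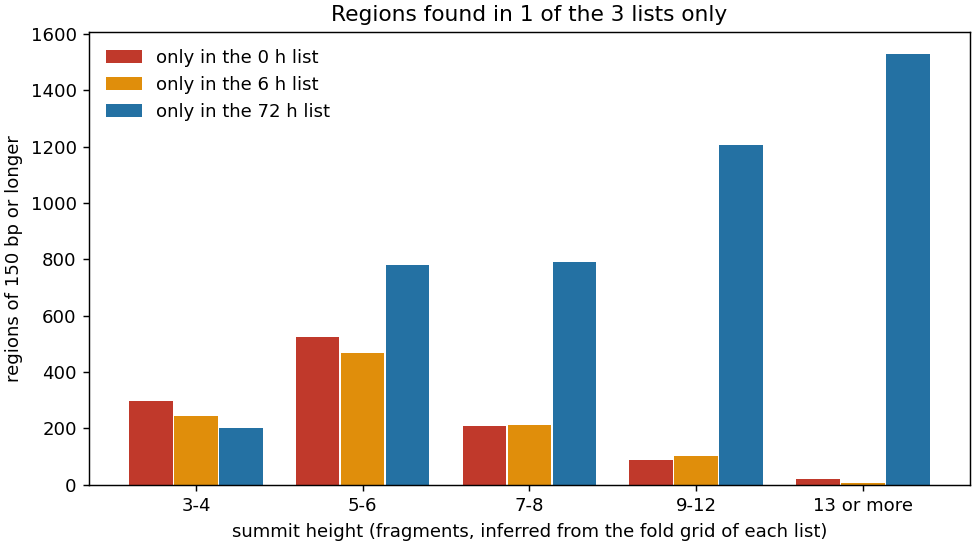
Bars count the regions of 150 bp or longer found in 1 list only, by summit height in fragments as inferred from the fold grid of that list, for 0 h (red), 6 h (orange) and 72 h (blue). The 0 h and 6 h bars hold 298 and 243 regions at 3 to 4 fragments and 523 and 467 at 5 to 6, while 1529 regions at 72 h have 13 fragments or more against 19 at 0 h and 7 at 6 h.

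Members were short as well as low. Their median length was 169 bp (range 150 to 397), against 238 bp in regions listed at all 3 times. Just inside the length limit, at 150 to 159 bp, 344 of 6751 regions (5.10%) were listed at 0 h only, and just outside it, at 140 to 149 bp, 501 of 7248 (6.91%), and the median fold of those was 4.54 on either side. Of the 12903 regions of 300 to 499 bp 17 were members (0.132%), and of the 10082 regions of 500 bp or more none was, which allows a share of up to 0.0366%. Longer regions have more bases by which to be overlapped, and length was part of the rule.

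The highest members were narrow for their height. A longer region is more easily overlapped, so the rule itself favours short ones, and the contrast is a description. Among regions of 13 to 18 fragments, 1 of the 19 members reached 200 bp (5.26%, 0.133 to 26.03), against 50.4% (49.4 to 51.3) of 9880 regions listed at all 3 times and 41.4% (38.8 to 44.0) of 1457 listed until 6 h. Their median lengths were 166, 200 and 188 bp. The 9 regions of this height that were missing at 6 h and listed again at 72 h had a median of 165 bp, close to the members.

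**Figure D3:**
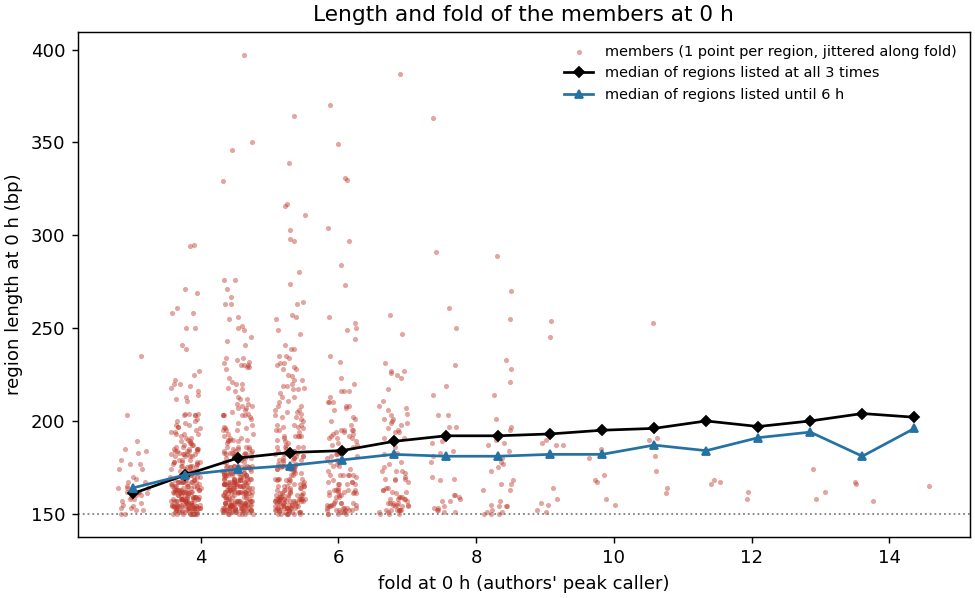
Each red point is a member, by fold and length at 0 h, moved slightly along the fold axis so that points do not hide each other; the lines give the median length of regions listed at all 3 times (black) and until 6 h (blue) at the same fold. Most members lie near the 150 bp limit (dotted), and 16 of the 19 points above a fold of 10 lie below both lines.

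The member with the highest fold, 14.4 (18 fragments), lay on chromosome 10 at 42734636 to 42734800, outside genes and 26695 bp from Sec63, a factor of protein import into the endoplasmic reticulum. The nearest region was 7804 bp away at 6 h and 25080 bp away at 72 h. Next came 3 members of fold 13.6. They lay 26171 bp from Pdyn, the prodynorphin gene (chromosome 2, 129660212 to 129660377), 12013 bp from Eno1, a glycolytic enolase (chromosome 4, 150260893 to 150261049), and 27580 bp from Dera, an aldolase of deoxyribose phosphate (chromosome 6, 137865453 to 137865619). A fold of 12.9 was shared by a member 21342 bp from Pawr (chromosome 10, 108435734 to 108435907), one inside Pakap (chromosome 4, 57723795 to 57723956) and one inside Timm44, of the mitochondrial import motor (chromosome 8, 4275563 to 4275720). The last of the 10 highest by −log10 q were at 12.1 near Nsun7 and Ubl3 and at 11.3 inside Ddr2, a collagen receptor, which stands for 3 members tied at that value. Of the 9 members above that tie, 7 lay outside protein-coding genes, and the one in Timm44 lay within 1 kb of a gene end. Gene spans held 51.2% of all members and 61.2% of regions listed at all 3 times. These 9 were picked by rank and were not compared with regions of their height.

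The 5 longest members had low summits. A region of 397 bp inside Stard9, a kinesin (chromosome 2, 120640431 to 120640827), had a fold of 4.54. The other lengths were 387 bp (46214 bp from Apip), 370 bp (in Slx1b, a structure-specific nuclease subunit), 364 bp (in Tap2, of the peptide transporter for antigen presentation) and 363 bp (in Rpl12, a ribosomal protein). Their folds were 6.80, 6.05, 5.29 and 7.56. The members in Tap2 and Rpl12 had a 6 h region 59 bp and 20 bp away.

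Members lay in gene spans less often than lasting regions, those listed at all 3 times. Within protein-coding gene spans lay 51.2% (48.3 to 54.2) of the members, 48.8% (47.7 to 49.9) of the regions listed until 6 h, 61.4% (56.7 to 65.8) of those listed again at 72 h and 61.2% (60.8 to 61.5) of those listed at all 3 times. Because height differs between these classes, each was also weighted to the members' folds. The differences, with Wald 95% intervals that treat regions as independent and cover counting error only, were then −7.11 percentage points (−10.5 to −3.74) from lasting regions, −10.4 (−15.8 to −5.01) from those listed again and −0.0401 (−3.53 to 3.44) from those listed until 6 h. More than 10 kb outside any coding gene lay 29.6% of the members and, weighted, 23.8% of lasting regions, a difference of 5.79 points (2.74 to 8.84).

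Gene ends showed no such gap at matched height. Within 1 kb of an end of a coding gene lay 184 members (16.2%, 14.1 to 18.5) and 24.6% (24.3 to 24.9) of lasting regions, or 17.9% when weighted to the members' folds, a difference of −1.63 points (−4.14 to 0.871). Among the 688 members left when a later region within 500 bp counts as present, 5.96% lay at gene ends. Of 10 position measures, the weighted interval of the difference included 0 for 9 against regions listed until 6 h, for 2 against those listed again and for 3 against those listed at all 3 times. The exception against regions listed until 6 h was the gene-dense part of the genome, with 60.8% of members and a weighted 56.7%, a difference of 4.03 points (0.610 to 7.44). The measures overlap one another, so these counts are not independent, and an interval that includes 0 does not show that 2 classes are alike.

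**Figure D4:**
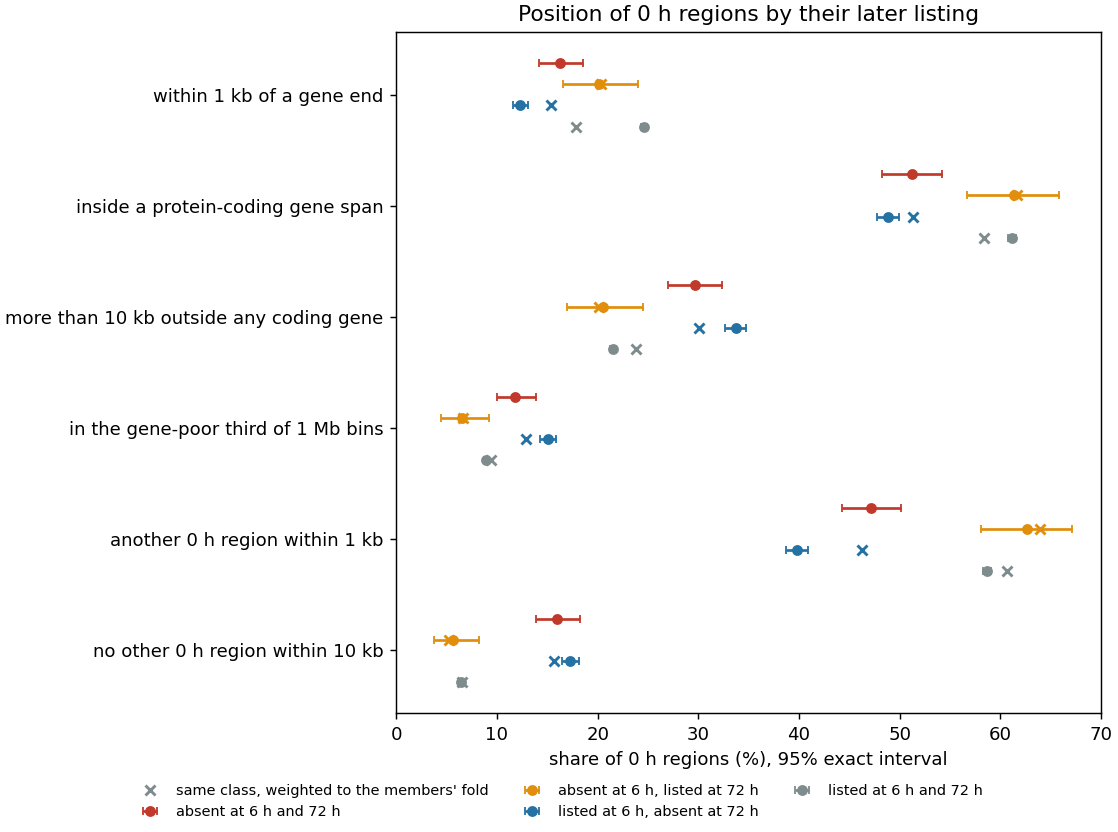
Dots give the share of 0 h regions with each position, by later listing, with exact 95% intervals (hidden by the dot where narrow), and crosses the same class weighted to the members' folds. For the share with another 0 h region within 1 kb, members (47.2%) and the weighted regions listed until 6 h (46.3%) lie together, below the weighted lasting regions (60.7%). Unweighted, regions listed until 6 h stand at 39.8% and lasting regions at 58.7%.

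Members stood alone more often than lasting regions of their height. Another 0 h region of any length lay within 1 kb of 535 members (47.2%, 44.2 to 50.1), against 60.7% of lasting regions after weighting, a difference of −13.5 points (−16.9 to −10.2). No other region lay within 10 kb of 181 members (16.0%, 13.9 to 18.2), against 6.48% after weighting, a difference of 9.48 points (7.19 to 11.8). The lone members lay in the gene-poor part of the genome in 31.5% (24.8 to 38.8) of cases. Among the 440 with a neighbour within 500 bp this share was 5.68% (3.71 to 8.27), and 33.0% (28.6 to 37.6) of those lay within 1 kb of a gene end. Over all members 11.8% lay in the gene-poor part and 16.2% within 1 kb of a gene end. Regions of the other classes were not split in this way, so these shares do not set the members apart. Median fold was 4.54 in both groups of members. The nearest neighbour within 1 kb was higher than the member in 374 of 535 cases (69.9%, 65.8 to 73.8) and was itself listed at all 3 times in 301 (56.3%, 51.9 to 60.5), while 109 neighbours (20.4%, 17.04 to 24.04) were listed at 0 h only. Regions listed until 6 h had such shares of 55.2% (53.4 to 57.0) and 18.9% (17.5 to 20.3) for their neighbours, and lasting regions 66.3% (65.9 to 66.8) and 14.4% (14.04 to 14.7). The neighbour was the higher one for 52.2% and 25.7% of these, which were themselves higher than the members. Against regions listed until 6 h, weighted to the members' folds, the share of members with a region within 1 kb differed by 0.918 points (−2.56 to 4.398).

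Later regions lay close to many members. A 6 h region lay within 100 bp of 122 members (10.8%, 9.01 to 12.7) and within 500 bp of 419 (36.9%, 34.1 to 39.8), and a 72 h region within 500 bp of 337 (29.7%, 27.1 to 32.5). For 310 members (27.3%) this held at both times. Had a later region within 500 bp counted as present, 688 regions would have been members, and had later regions been required to cover 50% of a region, 3190. At the other end, 169 members (14.9%, 12.9 to 17.1) had no region within 10 kb at 6 h or at 72 h. Zfhx3, a homeobox and zinc finger gene, held such a member at chromosome 8, 108387259 to 108387426, with a fold of 9.83 and the nearest later region 186813 bp away. Another member lay within 10 kb of 57 members (5.03%), in 27 pairs and 1 group of 3. Members were 1.49% of the 0 h regions of 150 bp or longer. No such share was taken for other sets of that size, so it does not say whether members lay closer together or farther apart than others.

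**Figure D5:**
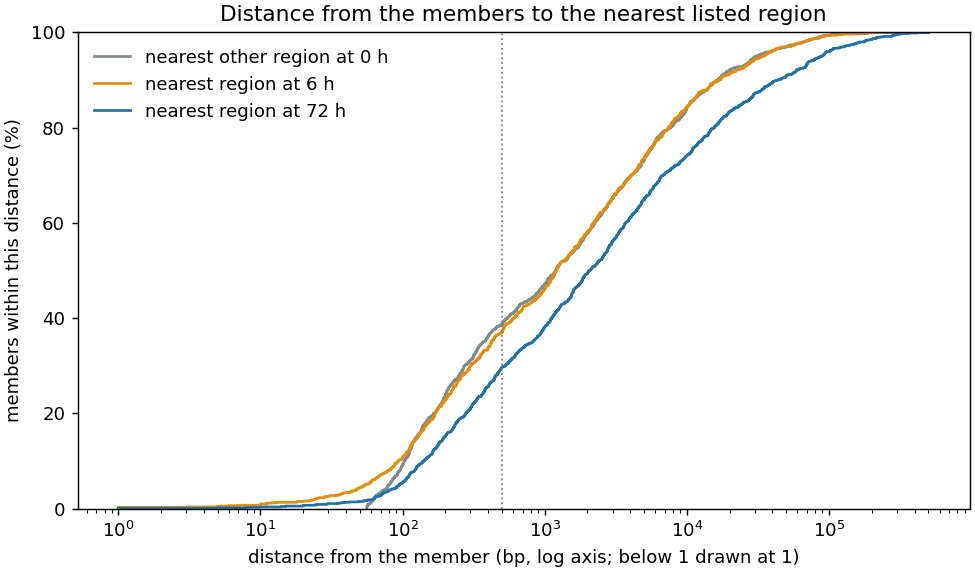
Curves give the share of the 1134 members whose nearest other 0 h region (grey), nearest 6 h region (orange) or nearest 72 h region (blue) lies within the distance on the log axis. The 6 h curve runs along the 0 h curve, with 36.9% and 38.8% within 500 bp (dotted), and the 72 h curve lies lower at 29.7%.

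Members were spread over all 20 chromosomes. Their share of the 0 h regions ran from 0.980% (0.537 to 1.64) on X to 1.95% (1.55 to 2.41) on chromosome 15, and the interval of chromosome 15 alone left out the share over all chromosomes, 1.49%. Among regions of at most 8 fragments, where 9.74% were members, chromosome 15 held 12.6% (10.1 to 15.5) and X 5.16% (2.61 to 9.05). Both of these intervals left out the 9.74%. With 20 intervals of 95% looked at, some can leave out the overall share by counting error, and this was not tested. By gene density the shares were 1.84% (1.54 to 2.17) in the gene-poor, 1.41% (1.26 to 1.58) in the middle and 1.47% (1.36 to 1.58) in the gene-dense part. Among regions of at most 8 fragments they were 10.4% (8.69 to 12.3), 8.61% (7.66 to 9.65) and 10.2% (9.45 to 11.0), so at low height the gene-poor and gene-dense shares were close.

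No locus held many members. Of 21631 protein-coding genes, 1074 had a member in the span or within 10 kb of it: 1011 had 1, 59 had 2 and 4 had 3. The 4 were Hjurp, the chaperone of the centromeric histone CENP-A, Col26a1, a collagen, Gse1, a coiled-coil protein, and Pycard, the inflammasome adaptor ASC. Around Pycard the members had folds of 4.54, 3.78 and 3.02, of 5 regions of 150 bp or more in the locus. The first lay inside the gene (chromosome 7, 127993236 to 127993456), with a 6 h region 11 bp away and a 72 h region 20 bp away. The 3 members near Hjurp, all outside its span, had folds of 6.80, 4.54 and 3.78, of 11 regions. Those of fold 6.80 and 4.54 lay inside the neighbouring gene Mroh2a. All 3 in Col26a1 lay inside the gene, with folds of 3.78, 3.78 and 5.29 and 6 h regions 1759 to 11204 bp away. At Gse1 3 of 66 regions were members. Of the genes with 2, those with the highest member included Pakap, Arhgap26, Map1s, Slc5a5 and Ehbp1l1, and the loci of Map1s and Slc5a5 shared the same 2.

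The members at gene ends with the highest −log10 q were those of Timm44 (fold 12.9) and Nlgn2 (9.83), a neuroligin. At 9.07 stood Tmsb4x, thymosin beta 4, and 1 region shared by Ddit3, the stress factor CHOP, and Mbd6. At 8.32 stood Gdpd3, Ncf1, Nmnat3 and Oaf, in a tie that also held genes not named here. Ncf1 encodes p47phox, the organizer of the phagocyte oxidase. Its member, 270 bp long with 10 fragments, lay inside the gene (chromosome 5, 134228694 to 134228963), with a 6 h region 243 bp and a 72 h region 305 bp away. All 8 other regions of 150 bp or more in the Ncf1 locus were listed at all 3 times. Nmnat3, an NAD-synthesizing enzyme of mitochondria, had a member 3 bp from a gene end, and there the nearest later region was 9017 bp away.

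Genes of blood lineages held members at shares not told apart from that of all coding loci at these counts. Over all coding loci 798 of 58726 regions were members (1.36%, 1.27 to 1.46). Progenitor and stem genes held 3 of 152 (1.97%, 0.409 to 5.66), myeloid transcription factors 3 of 212 (1.42%, 0.293 to 4.08) and neutrophil and granule genes 3 of 164 (1.83%, 0.379 to 5.25). Lymphoid genes held 2 of 68 (2.94%, 0.358 to 10.2), erythroid and megakaryocyte genes 2 of 84 (2.38%, 0.290 to 8.34), genes of mast cells, basophils and eosinophils 1 of 45 (2.22%, 0.0562 to 11.8) and dendritic cell genes 1 of 77 (1.299%, 0.0329 to 7.02). Nuclear lamina and envelope genes held 2 of 142 (1.41%, 0.171 to 4.995). No member lay in the loci of cohesin genes (0 of 72, allowing up to 4.99%), of monocyte and macrophage genes (0 of 47, up to 7.55%) or of genes of non-blood tissues (0 of 63, up to 5.69%). The interval of each of these 11 lists included the share over all loci.

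Among the list genes, Fos, Cxcr2, Ncf1, Nfe2 and B2m had a member at a gene end. Fos, an AP-1 subunit, had a member of fold 5.29 inside the gene, 311 bp long, with a 6 h region 204 bp away. In Cxcr2, the chemokine receptor of neutrophils, the member had a fold of 6.05 and a 72 h region 95 bp away. In Nfe2, a factor of erythroid cells and megakaryocytes, it had a fold of 3.78. Gata2, a factor of stem and mast cells, held a member of fold 6.05 in the gene, and Pax5, the B-cell factor, one of the same fold, both named after their values were seen. Of the 3 regions of 150 bp or more in the Pax5 locus, 1 was a member and the other 2 were listed until 6 h.

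Housekeeping genes held 6 of 110 (5.45%, 2.03 to 11.5), the one list whose interval lay above the 1.36% of all loci. The 6 were Eef2 and Eef1a1 (translation elongation), Hsp90ab1 (a chaperone), B2m (the light chain of MHC class I), Gapdh (glycolysis) and Rpl13a (a ribosomal protein). Each locus held 1 member, and the genes are named here for the count of the list. The members at Hsp90ab1, Gapdh and Eef1a1 lay outside the gene span, by 2760, 2076 and 1602 bp. The one in Rpl13a was also the member of the dendritic cell list, through Flt3l. In the order named, the folds of the 6 members were 6.05, 4.54, 6.05, 5.29, 3.78 and 3.78. Each had another 0 h region within 500 bp, and 5 of the 6 had a 6 h region within 500 bp, at distances of 111 to 536 bp over all 6. Fewer regions at Eef2 and Hsp90ab1 at 6 h were already known from these files, so the count is no independent evidence, and 12 lists were looked at without a test. Among regions of at most 8 fragments the list held 6 of 20 (interval 11.9 to 54.3%), against 9.40% (8.77 to 10.1) over all coding loci.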

How the data were processed

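Chromatin accessibility was measured by ATAC-seq with a commercial kit in 3 libraries, 1 per time point. The authors deposited 1 narrowPeak list per library, with 182233, 178055 and 145044 regions at 0, 6 and 72 h. The submitters' processing notes name BWA 0.7.17, MACS2 2.2.7, bedtools 2.30.0 and the build mm10; the sources used here do not state options, duplicate handling, read shifting or fragment selection, which can change heights and bounds. Each deposited line gives positions, a fold, which is a ratio of summit height over background, and −log10 p and q values of the authors' peak caller; its integer score was deposited too and not used. Read totals were not used here.

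Regions were compared with Python 3.11.15, pandas 2.3.3 and scipy 1.17.1; the member count was checked with bedtools 2.31.1, and overlaps were tested on simulated data. Regions of different lists matched at 1 bp of overlap. Gene spans (21631 protein-coding genes), promoter and miRNA sequences came from RefSeq, GRCm38.p6; spans carry no strand, exons or UTRs, so a gene end is either end of a span. Gene-poor 1 Mb bins held at most 3 genes and gene-dense ones more than 9. Shares have exact Clopper-Pearson 95% intervals, which cover counting error only.

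Named members were the 10 highest by −log10 q, the 5 longest and the 5 with the highest fold. Named genes were the 10 with the most members in the span with 10 kb on each side, the 10 gene ends with the highest member (predicted genes left out) and list genes with a member at an end or at least 2 in the locus; 1 gene so chosen is not reported here. Promoter genes, Zfhx3, Gata2, Pax5, the housekeeping genes other than B2m and genes beside hairpins were chosen after their values were seen. Members and gene lists were chosen with earlier results of these data known. Of 12 gene lists, 2 symbols did not match.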

Additional observations from a re-analysis of the deposited data

How the results depend on the processing

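No paired analysis was possible because each time point had 1 library, and leaving out a replicate was likewise impossible. The number of members depended on the rule: 35894 with no minimum length, 215 at 200 bp, 688 and 996 when a later region within 500 bp or 100 bp counted as present, 3190 when later regions had to cover 50% of the 0 h region, and 537 at a −log10 q of at least 5. Of 3 alternatives chosen after seeing the data, leaving out regions with a 0 h neighbour within 1 kb gave 599, and a −log10 q of at least 10 gave 73, with a median fold of 9.07; the third weighted lasting regions for fold and length. The percentage within 1 kb of a gene end was 10.1 with no minimum length, 19.1 at 200 bp, 13.4 and 5.96 with the 100 bp and 500 bp tolerances, 20.2 at 50% cover, 4.34 without neighbours and 13.7 at the higher q, and 8.73 and 39.2 with windows of 500 bp and 5 kb. The percentage in gene spans was 55.8 at 200 bp, 45.3 with the 500 bp tolerance, 54.7 at 50% cover, 43.7 without neighbours, 39.7 at the higher q and 70.4 with 10 kb on each side. The gene-poor percentage was 16.3 with no minimum length, 8.84 at 200 bp, 16.1 with the 500 bp tolerance, 17.2 without neighbours and 14.1 in bins of 500 kb. The percentage with a 0 h neighbour within 1 kb was 36.4 with no minimum length, 62.3 at 200 bp, 40.9 and 17.6 with the 100 bp and 500 bp tolerances, 54.2 at 50% cover and 38.4 at the higher q, and it was 73.2 within 5 kb. The percentage still absent at 72 h among regions absent at 6 h was 84.1 with no minimum length, 66.8 at 200 bp, 74.4 with the 500 bp tolerance, 73.9 at 50% cover, 67.7 and 74.5 at the lower and higher q, and 77.8 without neighbours. Of the 10 genes with the most members, 3 were also named from gene spans alone. Against lasting regions the gene-end difference was −8.36 points unweighted, −1.63 with weights for fold and −0.588 with weights for fold and length, and the gene-span difference was −6.59 with the last. The gene-dense difference changed sign, from −1.74 points to 0.362 and 0.702. Other than the weighting itself, the cause of these shifts was not tested. Summits of a few fragments limit all counts.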

Other observations

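Regions shorter than 150 bp were no members, yet most regions listed at 0 h only were short. Of 106032 such regions, 34760 (32.8%, 32.5 to 33.1) were listed at neither later time, with a median fold of 3.78. A few stood high: 86 had a fold of at least 10. The highest lay on chromosome 19 at 47925970 to 47926056 (fold 955, 87 bp), on X at 73659215 to 73659277 (fold 669, 63 bp), on chromosome 8 at 25200156 to 25200257 (fold 139, 102 bp) and on chromosome 2 at 27476590 to 27476663 (fold 110, 74 bp). The highest member, with a fold of 14.4, stayed far below them.

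Of 1005 miRNA hairpins, 1 was touched by a member: Mir5121, at chromosome 7, 45126722 to 45126924, in the member that also lies in Rpl13a. Another 4 members lay within 1 kb of a hairpin, among them those near Mir677, Mir6935 and Mir7228.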
